A study of Arabidopsis thaliana with 4 samples.

Results

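The DNA demethylases of Arabidopsis thaliana and their targeting factors were examined as 6 loci of the 27444 protein-coding genes of the nuclear genome, each named by its locus. They were the 5-methylcytosine DNA glycosylases ROS1 (AT2G36490), DME (AT5G04560), DML2 (AT3G10010) and DML3 (AT4G34060), the histone acetyltransferase IDM1 (AT3G14980) and the alpha-crystallin domain protein IDM2 (AT1G54840). Each was taken as the annotated gene plus 1 kb on either side. Methylation was read by EM-seq (enzymatic methyl sequencing), which uses enzymes in place of bisulfite to turn unmethylated cytosines into bases read as thymine while methylated ones are still read as cytosine. Shoot apices were treated for 24 h with 1 mM sodium nitroprusside (SNP), which releases nitric oxide, in 0.025% Silwet, a wetting agent (SNP 1 and SNP 2), or with 0.025% Silwet without SNP (mock 1 and mock 2). The labels give the genotype of all 4 libraries as Col-0, while the methods of the study speak of ap1/cal plants, in which inflorescence meristems proliferate in place of flowers. The methods speak of biological replicates, but nothing says which plants went into which library, so p-values measure only the spread between these 4 libraries. An apex holds many cell types, and a shift in their proportions cannot be told apart from a change of methylation within cells.

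Active demethylation in plants starts when a glycosylase cuts out 5-methylcytosine, after which the gap is repaired with an unmethylated cytosine. ROS1 is the main such enzyme of vegetative tissue, DME acts chiefly in the companion cells of the gametes, and DML2 and DML3 are their close relatives, while IDM1 and IDM2 are known to help bring ROS1 to some of its targets. ROS1 itself is known for promoter methylation that goes with transcription of the gene, a relation opposite to that of most promoters. Plant methylation occurs at CG, CHG and CHH sites (H is any base but G), of which CG sites are kept through replication and CHH sites must be set anew, in large part by RNA-directed DNA methylation. Many expressed genes carry CG methylation alone inside the gene body.

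The methylated part of the ROS1 upstream sequence is shown because nearly all promoter methylation of these loci lay in it. The window holds the 300 bases before the annotated start of ROS1, chr2:15314808-15315107 of TAIR10, minus strand, read 5′ to 3′ towards the gene and taken from the RefSeq TAIR10.1 genome. Capitals mark the 33 cytosines that were listed as methylated in all 4 libraries. A capital C is a cytosine on the ROS1 strand and a capital G is the base opposite a cytosine of the other strand.
ROS1 upstream window: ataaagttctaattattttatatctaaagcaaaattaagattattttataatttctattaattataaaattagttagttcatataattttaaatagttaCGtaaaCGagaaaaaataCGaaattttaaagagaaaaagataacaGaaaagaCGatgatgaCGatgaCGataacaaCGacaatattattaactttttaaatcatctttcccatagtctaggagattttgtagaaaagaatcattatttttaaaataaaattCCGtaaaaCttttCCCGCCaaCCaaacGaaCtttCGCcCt
The last 50 bases of this window, chr2:15314808-15314857, are repeated with capitals at the 9 CHH cytosines alone.
ROS1 proximal CHH cluster: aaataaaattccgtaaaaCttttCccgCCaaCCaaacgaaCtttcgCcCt
The capitals fell into a distal group of 14 CG cytosines at 124 to 201 bp before the start, with 1 CHG cytosine at 156 bp among them, and a proximal group of all contexts within 40 bp of it. Every one of the 9 CHH cytosines of the proximal group lay on the ROS1 strand, at 2 to 32 bp.

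The deposited lists held 4106388 and 3857352 nuclear cytosines in SNP 1 and SNP 2 and 3970449 and 4134559 in mock 1 and mock 2, at a median depth of 8 to 10 reads. A list names only cytosines at which methylation was called, each with at least 2 methylated reads, so an absent site was either unmethylated or not covered and a complete loss of methylation at a site cannot be seen. Levels were therefore compared at sites listed in all 4 libraries, and, unless stated otherwise, with at least 5 reads in each. The level of a segment is the weighted level, that is methylated reads over all reads of its sites. Intervals and floors for counting error are not given because neighbouring sites share reads. With 2 libraries against 2 there are 6 ways to assign the labels, and the smallest two-sided exact permutation p is 0.33, so groups that do not overlap reach it and no single segment can pass 0.05 by that test.

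Within the 6 loci and their flanks, 536 and 517 sites were listed in SNP 1 and SNP 2 and 535 and 577 in mock 1 and mock 2. They came to 1034 distinct sites, of which 345 (33.4%) were listed in all 4 libraries and 624 (60.3%) in 1 library only. CG sites recurred most, with 328 of 496 in all 4 libraries (66.1%), against 8 of 140 CHG sites (5.71%) and 9 of 398 CHH sites (2.26%). Over the whole genome the shares in all 4 libraries were 77.6% for CG, 56.8% for CHG and 10.6% for CHH. All 9 recurring CHH sites of the 6 loci were those before ROS1. The other CHH calls were scattered: 375 of the 398 sites (94.2%) were listed in 1 library only, against 59.2% over the genome.

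The loci differed widely in how much methylation they held. ROS1 (chromosome 2, 15307907 to 15314807, minus strand, 21 exons) had 281 distinct sites and 119 in all 4 libraries. DME (chromosome 5, 1309099 to 1318520, plus strand, 20 exons) had 299 and 122. IDM1 (chromosome 3, 5039812 to 5045525, minus strand, 10 exons) had 163 and 61, and IDM2 (chromosome 1, 20452593 to 20454266, minus strand, 3 exons) had 86 and 41. DML2 (chromosome 3, 3081735 to 3088550, minus strand, 21 exons) had 115 sites but only 2 in all 4 libraries. DML3 (chromosome 4, 16313366 to 16319426, plus strand, 21 exons) had 90 sites and none in all 4, with 97.8% of them in 1 library only.

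ROS1 was the only one of the 6 genes with recurring methylation before its start. Its 1 kb upstream held 21 of 48 CG cytosines, 3 of 17 CHG cytosines and 9 of 218 CHH cytosines that were listed in all 4 libraries, against no such site in the 1 kb upstream of the other 5 genes. Upstream segments with at least 3 such sites were found for 29.7% of all protein-coding genes in CG, 15.0% in CHG and 12.2% in CHH. The number of listed sites in the 1 kb before ROS1 was 39 and 40 in SNP 1 and SNP 2 and 37 and 48 in mock 1 and mock 2. The means of 39.5 and 42.5 sites differed by -3 with a pooled SD of 5.52, and the groups overlapped (exact permutation p = 1, two-sided).

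Upstream of the methylated stretch the sequence was almost empty. The intergenic sequence before ROS1 runs for 3065 bp to the next gene, AT2G36500. From 301 bp before the start to that gene, none of 114 CG, 75 CHG and 679 CHH cytosines was listed in all 4 libraries. Only 18 of them were listed at all, each in 1 library. Between 1 kb and the next gene 15 sites were listed, each in 1 library and with at most 3 methylated reads. Sites listed in all 4 libraries thus lay within the last 201 bp before ROS1.

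**Figure D1:**
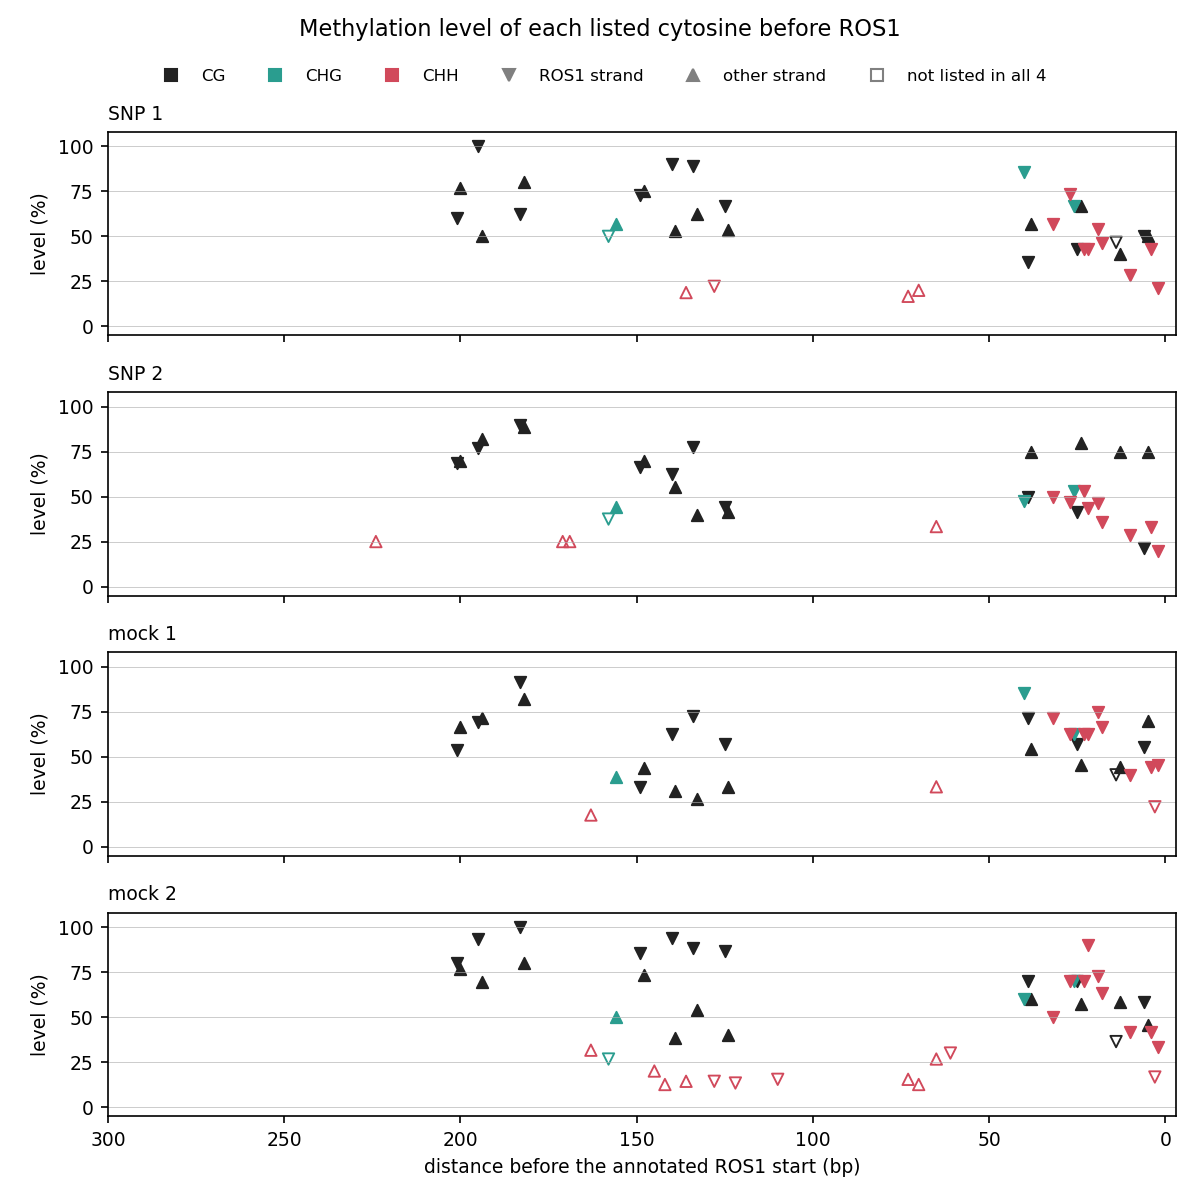
Methylation level (percent of reads, vertical axis) of each listed cytosine in the 300 bp before the annotated ROS1 start (horizontal axis, start at the right), 1 panel per library with SNP 1 and SNP 2 above mock 1 and mock 2. Colours give the context, the direction of the triangle the strand, and open symbols mark sites not listed in all 4 libraries; filled CHH symbols stand only at 2 to 32 bp and filled CG symbols form the proximal group and the distal group at 124 to 201 bp.

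The proximal CHH cytosines had lower levels in both SNP libraries than in both mock libraries, a difference that did not pass the test over all segments. At the 9 sites the weighted level was 45.6% in SNP 1 and 40.4% in SNP 2, against 57.7% in mock 1 and 58.0% in mock 2. The means were 43.0% ± 3.66 and 57.8% ± 0.218 (SD, n = 2 each), a difference of -14.8 percentage points with a pooled SD of 2.59 (exact permutation p = 0.33). In the edgeR quasi-likelihood fit over all CHH segments the log2 odds ratio was -0.86, with an adjusted p of 0.718 (Benjamini-Hochberg), so the segment did not pass the threshold of 0.05, though its unadjusted p was under 0.05. That fit called 0% of 6631 CHH segments, with 455 at an unadjusted p under 0.05.

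The direction was not that of CHH methylation before genes at large. Over all 3195 upstream CHH segments tested the median difference was 2.83 points, with median levels of 48.4% in the SNP libraries and 45.2% in the mock libraries. The SNP libraries both lay below the mock libraries, as before ROS1, in 10.2% of these segments and above them in 27.4%. A difference at or below that of ROS1 was found in 2.35% of them. The mean level over the 4 libraries before ROS1, 50.4%, was itself ordinary, at or above that of 61.5% of the segments. These shares describe where ROS1 lies and are not a test of it.

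The 9 sites span 31 bp and share the same reads, so they are not 9 independent measurements. The highest depth at any of them was 15 reads in SNP 1 and 18 in SNP 2, against 11 in mock 1 and 12 in mock 2, and the lowest was 13 and 14, against 7 and 10. The mock libraries were thus shallower here, with 78 and 100 summed reads against 125 and 141 in the SNP libraries, and since a listed site needs 2 methylated reads, the lowest level a list can hold is higher at lower depth. The part of depth in the difference was not tested. At the 2 sites that reached 10 reads in all 4 libraries, 2 and 10 bp before the start, the levels were 25.0% and 24.1% in SNP 1 and SNP 2 and 42.9% and 37.5% in mock 1 and mock 2, a difference of -15.6 points.

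All 9 sites had a lower mean level in the SNP libraries. The site 22 bp before the start was methylated in 6 of 14 reads in SNP 1 and 7 of 16 in SNP 2, against 5 of 8 in mock 1 and 9 of 10 in mock 2. The site at 19 bp was methylated in 7 of 13 and 7 of 15 reads in the SNP libraries, against 6 of 8 and 8 of 11 in the mock libraries. At both, the SNP libraries lay below the mock libraries. The site closest to the gene, at 2 bp, was methylated in 3 of 14 and 3 of 15 reads, against 5 of 11 and 4 of 12. It had the lowest level of the 9 in both SNP libraries and in mock 2. At the sites at 4, 27 and 32 bp the groups met or overlapped. At 27 bp the levels were 73.3% and 47.1% in the SNP libraries and 62.5% and 70.0% in the mock libraries.

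Methylated CHH cytosines did not fill the proximal stretch evenly. On the ROS1 strand 9 of the 17 CHH cytosines within 100 bp of the start were listed in all 4 libraries, and on the other strand none of 7. By sequence, both CAA cytosines, 2 of 3 CCA, 2 of 3 CCC, 2 of 3 CTT and 1 of 2 CTA cytosines of the ROS1 strand were listed in all 4, against 0 of 3 CAT cytosines and 0 of 1 CCT. These counts are too small for a comparison between trinucleotides. Of 22 CHH cytosines at 101 to 300 bp, beside the distal CG group, 10 were listed in some library but none in all 4. When every listed CHH site of each library in the 1 kb was used, whether or not the other libraries listed it, the levels were 38.4% and 35.7% in SNP 1 and SNP 2 and 46.9% and 33.1% in mock 1 and mock 2, and the groups overlapped. Mock 2 had the most such sites, 21, against 12 in mock 1, 13 in SNP 1 and 15 in SNP 2.

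CG methylation before ROS1 did not separate the groups. Over 19 CG sites of the 1 kb the level was 63.3% in SNP 1 and 60.9% in SNP 2, against 56.6% in mock 1 and 73.2% in mock 2. The mock libraries thus lay on either side of the SNP libraries. The means were 62.1% ± 1.69 and 64.9% ± 11.8 (SD, n = 2 each), a difference of -2.82 points (pooled SD 8.41, edgeR log2 odds ratio -0.20, adjusted p = 0.854). The sign rested on mock 2: without it the difference was 5.50 points, and at the 4 sites that reached 10 reads in all 4 libraries it was 7.68 points. CG upstream segments had a median level of 85.5% in the SNP libraries and 87.9% in the mock libraries over 7791 genes, and the mean level before ROS1, 63.5%, was at or above that of only 6.21% of them.

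The distal and proximal CG groups were each followed on both strands. In the distal group all 14 CG cytosines were listed in all 4 libraries, at 68.8% in SNP 1, 66.9% in SNP 2, 56.8% in mock 1 and 76.5% in mock 2. The groups overlapped there, with a difference of 1.20 points (pooled SD 9.87). In the proximal group the 5 CG sites with enough reads stood at 48.3% and 46.8% in SNP 1 and SNP 2 and 55.6% and 62.3% in mock 1 and mock 2. The difference was -11.4 points with a pooled SD of 3.45, without overlap (exact permutation p = 0.33). At these sites the ROS1 strand gave 42 of 58 reads in SNP 1 and 49 of 62 in SNP 2. In mock 1 it gave 23 of 45 reads, and 32 of 61 in mock 2. How far this uneven share of the strands entered the difference and the lack of overlap was not tested.

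At the proximal CG sites with enough reads the 2 strands differed in direction. This split was looked at after the values were seen and was not tested. The 3 sites on the ROS1 strand, which lie among the CHH sites of the same strand, had 42.9% and 38.8% in the SNP libraries and 60.9% and 65.6% in the mock libraries. The 2 sites on the other strand with enough reads had 62.5% and 76.9% in the SNP libraries. They had 50% and 58.6% in the mock libraries, from 13 to 29 reads a library. Sites of that strand at 5 and 13 bp were listed in all 4 libraries but had 4 reads each in SNP 2. The groups overlapped at both, with 50% and 75% against 70% and 45.5% at 5 bp. At 13 bp the levels were 40% and 75% in the SNP libraries and 44.4% and 58.3% in the mock libraries. In the distal group the other strand was higher in both SNP libraries, at 64.0% and 63.4% against 50.5% and 61.9%. On the ROS1 strand of the distal group the libraries overlapped.

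CHG methylation before ROS1 rested on 3 sites, at 26, 40 and 156 bp. Their level was 69.8% in SNP 1 and 48.9% in SNP 2, against 54.5% in mock 1 and 58.3% in mock 2, so the SNP libraries lay on either side of the mock libraries. The means were 59.3% ± 14.8 and 56.4% ± 2.68 (SD, n = 2 each), and the difference of 2.89 points (pooled SD 10.6, edgeR adjusted p = 0.981) became -7.55 points without SNP 1. Of the CHG segments fitted, 0.344% were called.

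At recurring sites with enough reads, the ROS1 upstream sequence had a lower CG level and a higher CHG level than its own gene body. Cytosines that were not listed do not enter these levels, so they do not measure how much of either sequence was methylated. Of the CG cytosines, 43.8% recurred upstream (21 of 48) and 27.0% in the body (81 of 300). Of the CHG cytosines, 17.6% recurred upstream (3 of 17) and 1.00% in the body (5 of 498). The CG level upstream minus body was -19.8 and -26.2 points in SNP 1 and SNP 2 and -35.6 and -17.0 in mock 1 and mock 2, a mean of -24.6 ± 8.25 (SD, n = 4), and was negative in all 4 libraries. In an edgeR fit with a term for each library the log2 odds ratio was -2.13 (adjusted p = 2.12e-11), where 45.6% of the 5011 genes fitted passed the threshold, 1070 with a lower and 1217 with a higher upstream level. For CHG the difference was 39.8 and 6.95 points in the SNP libraries and 16.5 and 9.35 in the mock libraries, positive in all 4, with a log2 odds ratio of 1.11 (adjusted p = 0.0108), where 45.8% of 883 genes passed. That call rested on 3 sites against 4 and was lost without SNP 1 (adjusted p = 0.466) or without mock 1 (adjusted p = 0.0732). A different effect of SNP on the upstream sequence and on the body was not detected in the same fit by edgeR (adjusted p = 0.814 for CG, where 0.0998% of genes passed, and 0.918 for CHG, where 0% passed), nor was an unadjusted p under 0.05. No other member could be fitted, since none had recurring sites upstream, and the ROS1 body had no CHH site in all 4 libraries.

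The ROS1 gene body carried CG methylation in a pair of blocks. Of its 300 CG cytosines 81 were listed in all 4 libraries, 73 in coding sequence, 8 in introns and none among the 26 in untranslated regions. They lay from 1135 to 2871 bp (exons 4 to 7) and from 5736 to 6279 bp (exons 17 to 19) after the start. No CG site between or outside these blocks was listed in all 4 libraries. At the 74 sites with at least 5 reads the level was 83.0% in SNP 1 and 87.0% in SNP 2, against 92.1% in mock 1 and 90.2% in mock 2. Both SNP libraries were lower, as they were in 43.1% of the 14600 CG bodies tested. The means were 85.0% ± 2.84 and 91.2% ± 1.36 (SD, n = 2 each), a difference of -6.13 points (pooled SD 2.23). Of the 74 sites 53 had a lower and 21 a higher mean in the SNP libraries. Both SNP libraries lay below both mock libraries at 18 sites and above them at 7. Neighbouring sites share reads, and the share of such sites in other genes was not counted. Of all CG bodies tested, 76.9% had a lower SNP mean.

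The ROS1 body did not pass the threshold in the edgeR fit over CG segments, where 1.32% of 31550 segments did (log2 odds ratio -0.85, adjusted p = 0.0766). With the 81 sites listed in every library at any depth it did (log2 odds ratio -0.95, adjusted p = 0.0246), and 2.18% of segments passed in that edgeR fit. At a minimum of 10 reads the log2 odds ratio was -0.16 (edgeR adjusted p = 0.947), and without SNP 1 it was -0.62 (edgeR adjusted p = 0.548). The median difference over all CG bodies tested was -2.76 points, and 26.0% of bodies had a difference at or below that of ROS1. The blocks were also taken apart. The 51 sites of the block near the start stood at 78.6% and 87.5% in SNP 1 and SNP 2 and 93.7% and 89.7% in mock 1 and mock 2 (difference -8.66 points, pooled SD 4.90, no overlap). The 23 sites of the far block stood at 90.7% and 85.8% in the SNP libraries and 89.0% and 91.1% in the mock libraries (difference -1.76 points, pooled SD 2.69, overlap). Of all whole CG bodies tested, 43.1% also had both SNP libraries below both mock libraries, as the near block did. The blocks were drawn from the recurring sites of these same data, and the difference between the blocks was not tested.

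In fixed 200 bp bins across ROS1, its flanks and its intergenic sequence, 12 bins could be fitted for CG, 1 for CHG and 1 for CHH. Of the CG bins 11 were lower and 1 higher in the SNP libraries, with a median difference of -2.96 points. Over the genome the SNP mean was lower in 76.9% of the CG bodies tested and in 63.3% of the CG upstream segments. The median differences of those larger units were -2.76 and -1.58 points. None of the 14 bins passed the edgeR threshold, 2 CG bins had an unadjusted p under 0.05, and the smallest adjusted p was 0.671. The shares of all CG bins with a lower SNP mean or with such an unadjusted p were not counted. Fisher's exact test on pooled reads called 1 CG bin, at 2408 to 2607 bp after the start (adjusted p = 0.0149), where it called 4.82% of CG bins. Over the genome 0.00285% of CG bins, 0% of CHG bins and 0% of CHH bins passed. The CHH bin was the proximal cluster again (adjusted p = 0.789 by edgeR).

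CHG methylation within the ROS1 body was slight. Of 498 CHG cytosines 5 were listed in all 4 libraries, all coding and in exons 16 to 19. At the 4 with enough reads the level was 30% and 41.9% in SNP 1 and SNP 2 and 38.1% and 49.0% in mock 1 and mock 2, overlapping groups (difference -7.57 points, pooled SD 8.08, edgeR adjusted p = 0.888). None of 1927 CHH cytosines of the body recurred, and the 1 kb after the gene, which beyond the first 97 bp lies in AT2G36480, had no CG or CHG site in any library.

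DME, the longest of the 6 genes, had the most recurring CG sites and a high CG level in every library. Its 122 recurring CG sites lay in coding sequence (96) and introns (26), from exon 3 to exon 18. Against 32.4% in the IDM1 body, they were 31.8% of the CG cytosines of the DME body. The level at 97 sites was 91.9% in SNP 1 and 92.3% in SNP 2, against 93.4% in mock 1 and 92.7% in mock 2. The means, 92.1% ± 0.269 and 93.0% ± 0.492 (SD, n = 2 each), differed by -0.982 points (pooled SD 0.397) without overlap, and the edgeR test gave an adjusted p of 0.753. The mean level was at or above that of 92.8% of CG bodies. The 500 bp stretches of DME differed in direction, and those named were picked after their values were seen. At 2501 to 3000 bp the 7 sites had 88.4% and 88.7% in the SNP libraries and 95.2% and 97.1% in the mock libraries. At 3501 to 4000 bp the 5 sites had 100% and 97.2% against 94.4% and 94.2%. The groups were also apart at 6001 to 6500 bp (difference -10.4 points) and 4501 to 5000 bp (4.25 points). In the other stretches with sites they overlapped. Groups apart have an exact permutation p of 0.33, so none of these stretches stands out by that test. How often stretches of other genes were apart was not counted. Of whole CG bodies, 43.1% had both SNP libraries below both mock libraries and 6.36% had them above. No CHG or CHH cytosine of DME recurred in all 4 libraries. In the 1 kb after the gene mock 2 alone listed 12 CHH sites within 368 bp, each with 2 methylated reads of 11 to 15.

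DML2 and DML3 were nearly free of recurring methylation. The 1 kb before DML2 had no listed site in any library. The single CG pair of DML2 in all 4 libraries, in an intron at chr3:3082219-3082220, was too little for a test. On the plus strand it was methylated in 14 of 17 and 9 of 12 reads in SNP 1 and SNP 2, against 21 of 21 and 11 of 12 in mock 1 and mock 2. On the minus strand it was methylated in 7 of 9 and 8 of 12 reads, against 10 of 10 and 8 of 8. The pair was thus lower in both SNP libraries on both strands, at 80.8% and 70.8% against 100% and 95.0%, from 20 to 31 reads a library, and this site was described after its values were seen. In DML3 the libraries listed 34 sites in SNP 1, 9 in SNP 2, 19 in mock 1 and 31 in mock 2, and no site was listed in all of them.

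IDM1, which acetylates histone H3 and is known to bind methylated DNA, was methylated through most of its body. Its 61 recurring CG sites, of 188 CG cytosines, ran from exon 3 to exon 10. The level at 45 sites was 89.2% in SNP 1 and 91.6% in SNP 2, against 93.0% in mock 1 and 91.8% in mock 2. The SNP libraries lay below the mock libraries by a small margin, with means of 90.4% ± 1.66 and 92.4% ± 0.911 (SD, n = 2 each) and a difference of -2.00 points (pooled SD 1.34, edgeR adjusted p = 0.640). No CG or CHG cytosine was listed in any library in the 1 kb before the gene, and no CHG or CHH site of IDM1 recurred.

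IDM2, which works in a complex with IDM1, held a short CG cluster near the end of the gene and a second stretch after it. The 19 recurring body sites all lay in coding sequence of exon 3, at chr1:20452879-20452990. The level at 16 sites was 84.5% in SNP 1 and 72.7% in SNP 2, against 86.7% in mock 1 and 84.5% in mock 2. SNP 2 stood apart from the other libraries, and the difference of -6.97 points had a pooled SD of 6.0 (edgeR adjusted p = 0.526). The 22 recurring CG sites in the 1 kb after IDM2 lay within the neighbouring gene NF-YC3 (AT1G54830, chromosome 1, 20451083 to 20452671), a transcription factor subunit whose annotated end overlaps IDM2 by 79 bp. They had 70.3% in SNP 1 and 70.3% in SNP 2, against 68.1% in mock 1 and 63.1% in mock 2. This was the one CG segment of the 6 loci that was higher in both SNP libraries, by 4.76 points (pooled SD 2.52, edgeR adjusted p = 0.761), as were 10.5% of CG segments after genes.

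**Figure D2:**
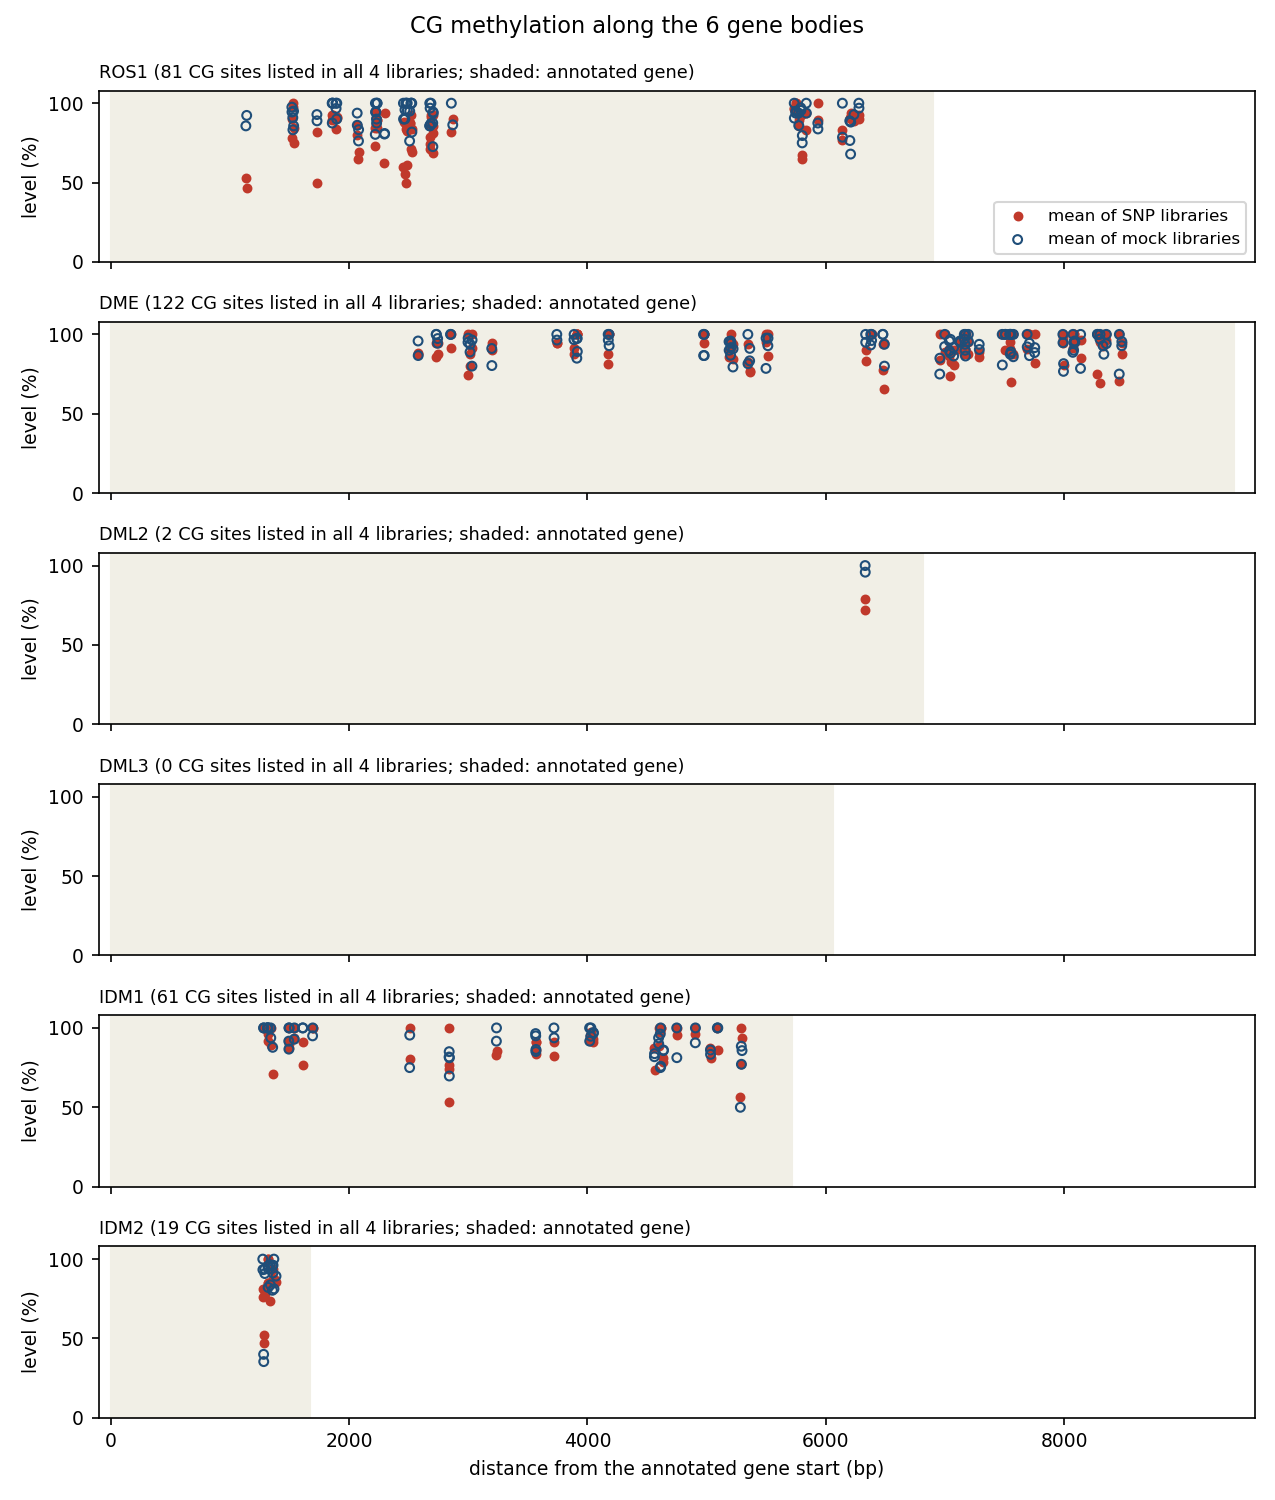
Level (percent, vertical axis) of each CG site listed in all 4 libraries against its distance from the annotated gene start (bp, horizontal axis) in the 6 genes, the shaded band being the gene. Filled points are means of SNP 1 and SNP 2 and open points means of mock 1 and mock 2; ROS1 shows 2 blocks of 58 and 23 sites, DME 122 sites, DML2 2 sites, DML3 none, IDM1 61 and IDM2 19.

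Over the 6 loci 9 of the 54 combinations of gene, segment and context had 3 or more sites at the minimum depth and could be fitted. None of the 9 passed the edgeR threshold, against 1.32% of CG, 0.344% of CHG and 0% of CHH segments genome-wide. The ROS1 body in CG and the ROS1 upstream sequence in CHH had an unadjusted edgeR p under 0.05. So did 4616 of the 31550 CG segments and 455 of the 6631 CHH segments fitted over the genome. In the 4 CG bodies that were fitted the SNP mean was below the mock mean, with differences of -6.97 to -0.982 points, and in 3 of them, ROS1, DME and IDM1, the groups did not overlap, where 43.1% of all CG bodies had the SNP libraries on the lower side without overlap. Fisher's exact test on pooled reads, which ignores the spread between libraries and here also asked for groups that do not overlap, called the same pair of ROS1 segments, where it called 18.1% of CG and 12% of CHH segments.

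**Figure D3:**
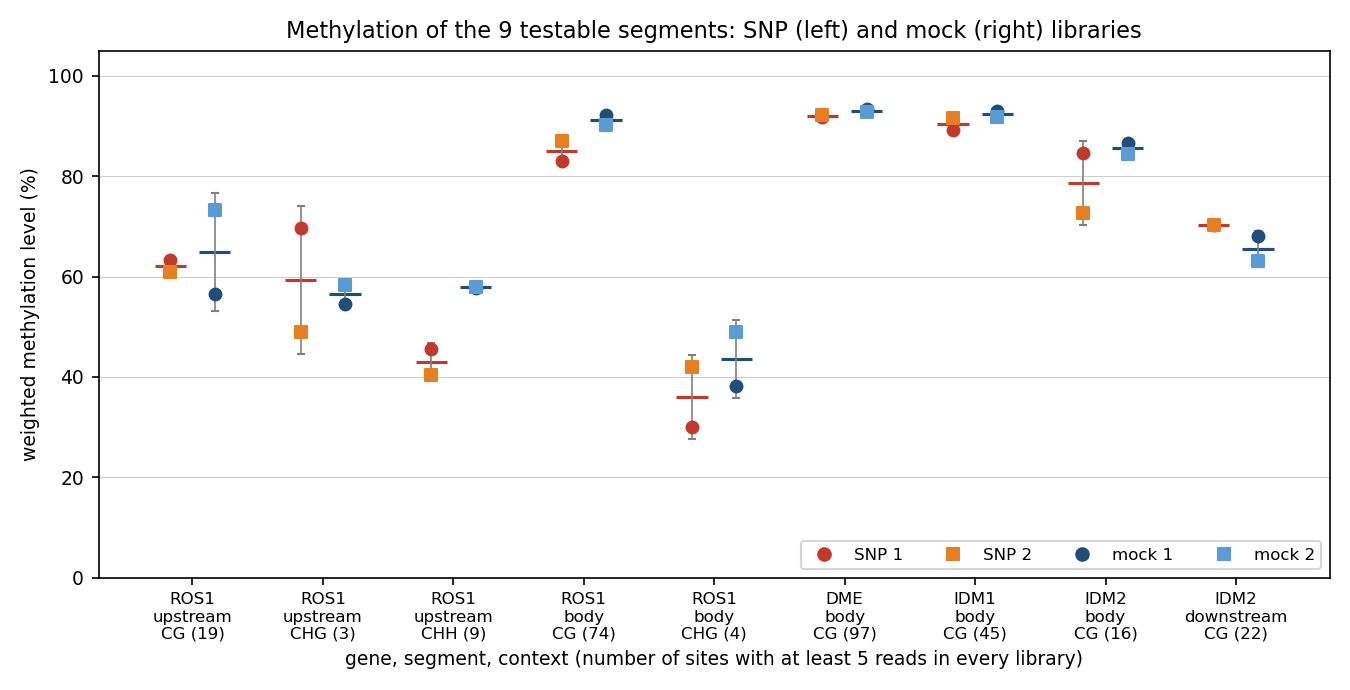
Weighted methylation level (percent, vertical axis) in each library of the 9 fitted segments (horizontal axis, with the number of sites), the SNP libraries left and the mock libraries right of each pair; lines are group means and bars the SD of 2 libraries. The ROS1 upstream CHH sites (45.6% and 40.4% against 57.7% and 58.0%) and the ROS1 body CG sites (83.0% and 87.0% against 92.1% and 90.2%) are the ones with an unadjusted edgeR p under 0.05. Over the genome 455 of 6631 CHH segments and 4616 of 31550 CG segments had such a p.

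**Figure D4:**
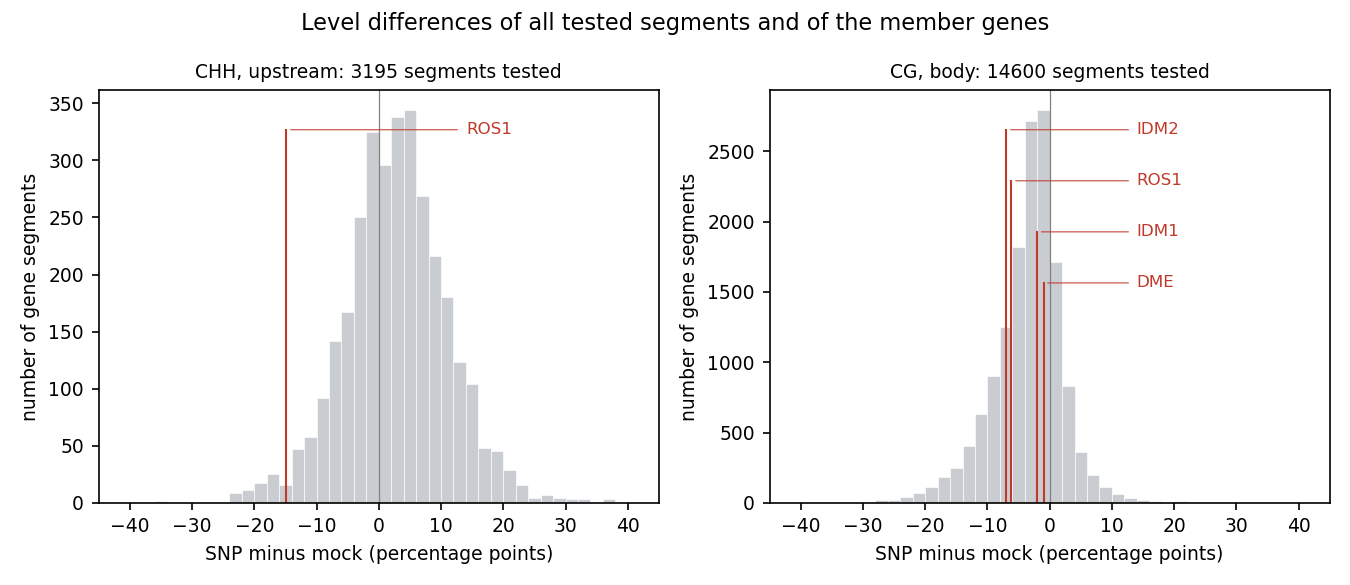
Number of gene segments (vertical axis) by the difference of SNP minus mock (percentage points, horizontal axis, bins of 2 points) for the 3195 upstream CHH segments (left) and the 14600 CG bodies (right) that were tested, with the members drawn as lines. ROS1 lies at -14.8 points in the left panel, where the median is 2.83, and IDM2, ROS1, IDM1 and DME lie at -6.97, -6.13, -2.00 and -0.982 points in the right panel, where the median is -2.76.

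Each locus with its flanks was also tested as a whole, with all contexts summed. The ROS1 region, 109 sites, had a level of 73.8% in SNP 1 and 75.7% in SNP 2, against 79.2% in mock 1 and 82.0% in mock 2. Both SNP libraries were lower, with means of 74.7% ± 1.31 and 80.6% ± 1.99 (SD, n = 2 each), a difference of -5.86 points (pooled SD 1.69) and an edgeR log2 odds ratio of -0.49 (adjusted p = 0.116). At a minimum of 10 reads the log2 odds ratio was 0.03. IDM2 with its flanks had 76.7% and 71.4% in the SNP libraries and 77.2% and 72.9% in the mock libraries, overlapping groups. The adjusted p by edgeR was 0.627 for DME, 0.541 for IDM1 and 0.912 for IDM2, and DML2 and DML3 had too few sites. None of the 4 regions tested was called, where 1.93% of 16834 regions were, and 1 had an unadjusted p under 0.05, as did 3009 of the 16834. Fisher's exact test on pooled reads called the ROS1 region, where it called 26.5% of all regions. In 3 of the 4 the SNP libraries both lay under the mock libraries, which 38.6% of all regions showed, and the median difference was -1.53 points over the 4 and -1.96 points over all regions.

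Other genes of the demethylation pathway were counted from a list of 20 loci. It covered partners of IDM1 and IDM2 (IDM3, MBD7), base excision repair proteins (ZDP, APE1L, APE2, ARP, LIG1, FPG1, XRCC1) and the ROS1 regulator ROS3. Also listed were iron-sulfur cluster assembly factors (MET18, AE7, NBP35, CIA1) and the histone chaperone FACT (SSRP1, SPT16). The SWR1 chromatin complex and its reader (PIE1, ARP6, SWC6, MBD9) completed the list. Of the 20, 18 could be tested, all but MBD7 and XRCC1, and none passed the edgeR threshold, where 1.93% of all regions did, while Fisher's exact test called 6, where it called 26.5% of all regions. MBD9 and SPT16 had an unadjusted p under 0.05, as did 3009 of the 16834 regions. The SNP mean was lower in 15 and higher in 3 of the 18, where it was lower in 11866 of all regions, with a median difference of -2.12 points and a range of -6.12 (ROS3) to 2.93 (APE2). In 8 of the 18 the SNP libraries both lay under the mock libraries, near the 38.6% of all regions that did.

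The 3 listed genes with the most sites were MBD9, PIE1 and MET18. MBD9, a methyl-CpG-binding domain protein, had 89.4% and 90.4% in SNP 1 and SNP 2 and 94.0% and 91.1% in mock 1 and mock 2 over 187 sites (difference -2.60 points, edgeR adjusted p = 0.129). PIE1, the ATPase of the SWR1 complex, had 91.8% and 90.9% in the SNP libraries and 93.4% and 90.7% in the mock libraries over 154 sites (difference -0.694 points, adjusted p = 0.721 by edgeR). MET18, which takes part in maturing iron-sulfur proteins such as ROS1, had 87.2% and 87.9% in the SNP libraries and 90.2% and 89.2% in the mock libraries over 125 sites (difference -2.15 points, adjusted p = 0.354 by edgeR). For MBD9 and MET18 the groups did not overlap, and for PIE1 they did.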

How the data were processed

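EM-seq libraries of shoot apices were prepared with the NEBNext kit and sequenced in paired ends. The authors aligned the reads to TAIR10 and called methylation with Bismark. Each deposited list gives, per site, the methylation level as a fraction and the depth as a read count. Methylated reads were recovered as level times depth, rounded to whole reads, and 100% of the sites came out whole within the rounding of the level. Every nuclear site (100%) matched the strand and context of a cytosine in RefSeq TAIR10.1, whose protein-coding gene models were used. All 20 pathway loci matched by locus identifier.

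Sites needed at least 5 reads in every library, a minimum below the 10 reads of the study's methods because few gene regions hold such sites. Methylated and unmethylated reads were summed over gene regions (gene plus 1 kb on either side, at least 10 sites and a level of 1%), segments (upstream 1 kb, body, downstream 1 kb, at least 3 sites and 1%) and 200 bp bins (at least 3 sites and 5%). They were tested on the whole table with the edgeR 4.0.16 quasi-likelihood test (R 4.3.3, limma 3.58.1) with a common dispersion and a coverage term per library. P-values were adjusted by Benjamini-Hochberg within each table, with a threshold of 0.05. Upstream and body were compared within libraries in a fit with a methylation term per library. Single levels were compared by two-sided exact permutation tests that went through all label assignments. Fisher's exact test was that of scipy 1.17.1. Scripts were tested on simulated data.

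The alternatives were a minimum of 10 reads or none, at most 50 reads, at least 3 methylated reads, flanks of 500 bp, 2 kb or the whole intergenic sequence before ROS1, no filter on sites or level, the replicate number as a block, the mean of the site levels, each library left out, and Fisher's exact test on pooled reads. All 6 members were named. Of the pathway list, genes past the threshold (none) and the 3 with the most sites were named by rule, while ROS3, APE2 and SPT16 were named after their values were seen, and single sites were named in the ROS1 upstream window and, as an exception, in DML2. The sequence printed is the 300 bases within 1 kb of ROS1 with the most sites listed in all 4 libraries. The members, lists and minimum depth were chosen with earlier results of these data known. Depth limits the comparison: the 4 lists held 42221751 to 50875710 reads at nuclear sites, and few sites reached 10 reads in every library.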

Additional observations from a re-analysis of the deposited data

How the results depend on the processing

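Of the main results, 67 of 80 values under the alternatives kept their direction and their side of the threshold, and of the single log2 odds ratios 149 of 163 did. The CHH difference before ROS1 was -17.4 to -12.2 points when each library was left out and -2.97 points with all listed sites of each library. The CG difference before ROS1 was 7.68 points at a minimum of 10 reads and -11.1 to 5.50 with a library left out, the sign resting on mock 2. The CHG difference was -2.14 points as the mean of the site levels and -7.55 to 13.3 with a library left out, and could not be had at 10 reads. The difference in listed sites was -8.5 to 2.5. The number of member calls was 1 for gene regions, 2 for segments and 1 for ROS1 bins by Fisher's exact test on pooled reads, which takes no account of the spread between libraries and called 26.5% of gene regions. It was 1 for segments with all listed sites, 1 for upstream against body at 10 reads, and 1 to 2 for upstream against body with a library left out. By Fisher's test the adjusted p was 1.01e-05 for the ROS1 region, 5.29e-06 for its body in CG and 0.0232 for its upstream CHH sites.

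Log2 odds ratios that turned sign were those of the ROS1 region at 10 reads (0.0266) and of ROS1 upstream CG at 10 reads (0.451). With a library left out the log2 odds ratio was -0.739 to 0.330 for ROS1 upstream CG, -0.0538 to 1.36 for the CG interaction, -0.439 to 0.824 for ROS1 upstream CHG, -0.337 to 1.68 for the CHG interaction and -0.278 to 0.119 for the IDM2 region. The IDM2 region turned without SNP 2 or without mock 1 (0.0880). None of these was past the threshold, and the cause of each was not tested.

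The count of gene regions called over the genome was 325, but 1 at 10 reads, 728 with all listed sites and 185 (without mock 1) to 511 (without mock 2) with a library left out. For CG segments it was 415, but 0, 713 and 63 (without SNP 1) to 520 (without mock 2). Under the edgeR alternatives CHG segments had 0 to 28 calls in place of 29, CHH segments 0 to 5 in place of 0, CG bins 0 to 15 in place of 4 and CHH bins 0 to 32 in place of 0. Upstream against body, CG calls were 2287, but 180 at 10 reads and 979 with flanks of 500 bp, where fewer genes were tested. For the replicate block, same-numbered libraries did not deviate together (correlations of 0.000182 to 0.0159). Such correlations cannot exclude a pairing, and nothing says whether the numbers pair the samples. With the block, 700 gene regions and 538 CG segments were called, and no region, segment or bin of the 6 loci was called, as without it.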
